A study of Mus musculus with 9 samples.

Results

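Class 3 semaphorins are secreted guidance proteins, and 10 genes of their signalling system are described here out of the 20655 measured in 3 sorted cell populations of mouse fat. The 10 were given as a list of symbols and found by their Ensembl identifiers, all with 1 row each: the ligands Sema3a, Sema3b, Sema3c, Sema3d, Sema3e and Sema3f, the neuropilins Nrp1 and Nrp2, and the plexins Plxnd1 and Plxna2. Cells were sorted by flow cytometry as DPP4+, ICAM1+ or CD142+ from the digested inguinal and axillary white adipose tissue of wild type C57BL/6 mice, 12 days old and of both sexes, with no treatment named in the labels. Each population was sequenced as polyA-selected RNA in 3 libraries (9 in all). The labels do not say which other surface proteins were gated on, nor whether different mice gave the 3 libraries of a group, and the spread between libraries that the p-values rest on may therefore be technical.

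The deposited values are differences between populations and not values per library. For each pair of populations, the authors' tables hold a log2 fold change with its standard error (SE) and an adjusted p from a Wald test (DESeq2). A gene is called changed here at an adjusted p below 0.05, and called genes are said to be higher or lower. A fitted level is the normalised count per population that returns the deposited mean over all libraries and the deposited fold changes, and it has no error of its own. The error is carried by the fold changes, which are given with their SE or with a 95% interval. The sources used here do not give the depth of a library. A mean of 56.9 to 4987 normalised counts over all libraries lay behind each of the 10 genes, between the 52.9 and the 99.2 percentile of all genes.

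As background, a class 3 semaphorin is cut from a precursor by furin-like convertases, leaves the cell and binds a neuropilin on its target. The neuropilin has only a short inner tail and pairs with a plexin, whose inner part switches off small GTPases and so loosens adhesion and collapses the cytoskeleton. Sema3e differs in that it can bind Plxnd1 without a neuropilin. The family is best known for repelling growing axons and endothelial cells, and neuropilins also bind VEGF. In fat, these proteins have been studied in nerve and vessel patterning and, for Sema3e, in the entry of macrophages in obesity.

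In DPP4+ cells 5 of the 6 ligands had their highest level, whereas Sema3f, Nrp1, Plxnd1 and Plxna2 had their lowest there. Plxna2 did not pass in CD142+ against DPP4+ cells. Among the ligand genes, 4 lie in a row on the plus strand of chromosome 5 between bases 12383385 and 17730268 (mm10), in the order Sema3d, Sema3a, Sema3e and Sema3c, and all 4 were lower in both other populations, where 12.0% (ICAM1+) and 8.91% (CD142+) of all genes tested were lower than in DPP4+ cells. Sema3b and Sema3f lie 72.3 kb apart on the minus strand of chromosome 9 and went in opposite directions. The receptor genes lie apart from them, Nrp1 on chromosome 8, Plxnd1 on chromosome 6, and Nrp2 and Plxna2 on chromosome 1.

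The 250 bases before the start site are shown for the 3 ligand genes with the largest falls in ICAM1+ cells and for the 2 receptor genes with the largest rises there, to set opposite patterns side by side. The start sites and bases come from RefSeq for GRCm38.p6 (mm10), and the bases read 5′ to 3′ on the strand of the gene. The GENCODE M21 gene positions given below differ in part from these starts. By them the windows of Sema3c and Nrp1 lie inside the gene, and that of Sema3d ends short of it. Those of Sema3e and Plxnd1 end at the start of the gene. Capitals mark GC boxes (GGGCGG, on either strand) and the CCAAT box (CCAAT, on either strand), and no TATA box (TATAAA, on either strand) was found in any of them.
Sema3c (chr5:17574566-17574815, plus strand): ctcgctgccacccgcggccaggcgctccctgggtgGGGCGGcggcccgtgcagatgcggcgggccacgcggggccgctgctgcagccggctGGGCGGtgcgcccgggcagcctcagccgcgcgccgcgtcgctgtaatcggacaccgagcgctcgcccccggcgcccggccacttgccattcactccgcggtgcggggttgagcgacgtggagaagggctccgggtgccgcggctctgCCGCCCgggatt
Sema3d (chr5:12382916-12383165, plus strand): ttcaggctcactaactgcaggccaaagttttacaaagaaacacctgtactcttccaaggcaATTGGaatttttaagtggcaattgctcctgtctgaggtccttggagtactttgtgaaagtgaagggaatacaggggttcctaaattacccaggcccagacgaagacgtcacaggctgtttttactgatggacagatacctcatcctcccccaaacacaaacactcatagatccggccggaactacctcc
Sema3e (chr5:14025026-14025275, plus strand): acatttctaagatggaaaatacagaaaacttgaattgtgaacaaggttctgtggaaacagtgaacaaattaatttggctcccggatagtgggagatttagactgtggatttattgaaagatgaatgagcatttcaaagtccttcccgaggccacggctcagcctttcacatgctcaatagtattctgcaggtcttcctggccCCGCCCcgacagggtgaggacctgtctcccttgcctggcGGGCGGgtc
Nrp1 (chr8:128358823-128359072, plus strand): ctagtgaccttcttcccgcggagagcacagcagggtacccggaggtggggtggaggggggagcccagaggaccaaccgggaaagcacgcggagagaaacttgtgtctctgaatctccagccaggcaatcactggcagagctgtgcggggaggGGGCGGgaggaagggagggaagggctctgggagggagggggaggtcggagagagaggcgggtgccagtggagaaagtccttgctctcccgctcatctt
Plxnd1 (chr6:115995006-115995255, minus strand): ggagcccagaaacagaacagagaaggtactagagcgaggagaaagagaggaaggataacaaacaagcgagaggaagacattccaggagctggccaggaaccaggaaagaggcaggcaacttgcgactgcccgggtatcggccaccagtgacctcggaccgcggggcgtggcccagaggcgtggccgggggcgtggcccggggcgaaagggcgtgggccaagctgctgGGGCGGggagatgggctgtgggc

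The starts of the 3 ligand genes differed in base composition, and those of the 2 receptor genes were alike in their content of G and C. The window of Sema3c was 78.4% G or C with 39 CpG dinucleotides, more than 98.4% of the 32526 windows of this kind, and it held 3 GC boxes. Sema3d had 46.8% and 4 CpG with 1 CCAAT box and no GC box, and Sema3e had 48.0% and 7 CpG with 2 GC boxes. Nrp1 (64.4%, 11 CpG) and Plxnd1 (64.8%, 16 CpG) each held 1 GC box. Over all windows the medians were 52.4% and 6 CpG, and 33.0% held a GC box, 33.8% a CCAAT box and 12.3% a TATA box. A CCGCCC run followed by AAT would count as both boxes, which none of these windows held, and a match of letters is a description only. Of the 10 genes, 8 were matched in the RefSeq table, and Sema3b and Sema3f were not.

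Sema3c had the highest fitted level per kb of exon among the ligands in each population, at 1616 in DPP4+, 345.9 in CD142+ and 134.1 normalised counts per kb in ICAM1+ cells. This semaphorin, which acts through both neuropilins and is needed for the outflow tract of the heart, lies on chromosome 5 from 17574281 to 17730268 (ENSMUSG00000028780.13). DPP4+ cells had a fitted level of 11535 normalised counts, CD142+ cells 2469 and ICAM1+ cells 957.6. No 2 of the 3 populations lay within error of each other. In ICAM1+ cells Sema3c was 12.0-fold lower than in DPP4+ cells (95% interval 10.2 to 14.3, log2 fold change -3.59 ± 0.13, adjusted p = 2.07e-175), and in CD142+ cells 4.67-fold lower (3.95 to 5.53, -2.22 ± 0.12, adjusted p = 1.68e-69). Between ICAM1+ and CD142+ cells the log2 fold change was -1.37 ± 0.13 (adjusted p = 2.24e-24). In bulk RNA of sorted cells, fewer cells that express a gene cannot be told apart from less RNA per cell, for this and every other gene below.

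**Figure D1:**
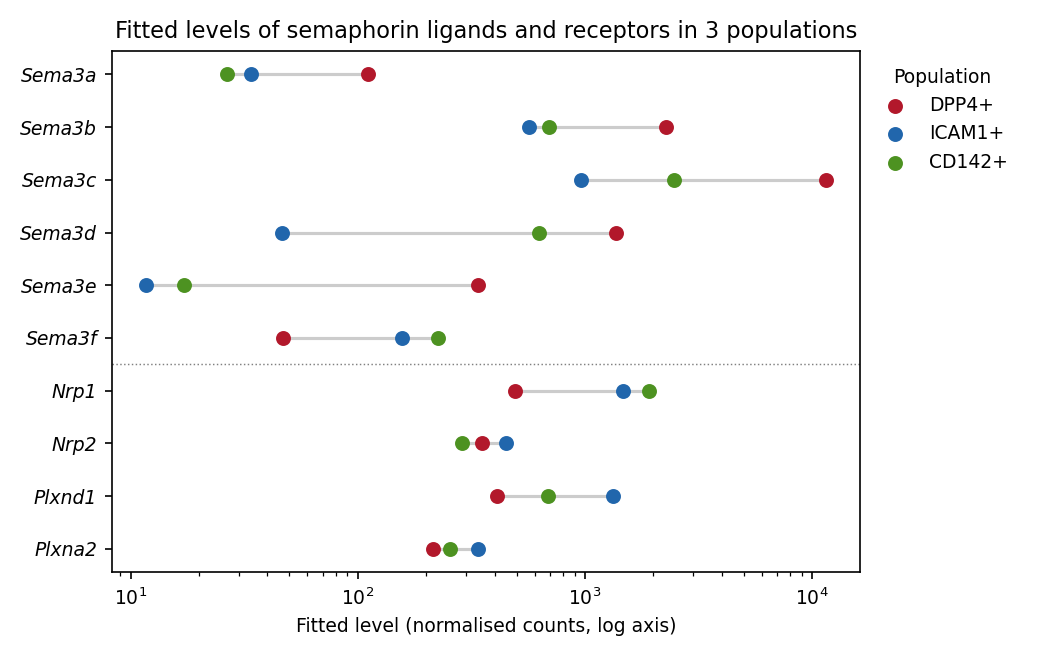
Fitted levels of the 10 genes (normalised counts, log axis), 1 point per gene and population, with no error since the deposited tables hold none for a level; ligands are above the dotted line and receptors below it. DPP4+ cells lie furthest right for Sema3a to Sema3e, as for Sema3c at 11535, and furthest left for Sema3f, Nrp1, Plxnd1 and Plxna2.

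Sema3d differed between ICAM1+ and CD142+ cells, whereas Sema3e did not pass there. Sema3d (ENSMUSG00000040254.11, chromosome 5, 12383385 to 12588948), known from heart and lymphatic development, had a fitted level of 1366 in DPP4+ cells, 630.2 in CD142+ cells and 46.6 in ICAM1+ cells. CD142+ cells had 46.1% of the level of DPP4+ cells (35.2 to 60.4, log2 fold change -1.12 ± 0.20), while ICAM1+ cells had 3.41% (2.48 to 4.68, -4.87 ± 0.23). The difference between ICAM1+ and CD142+ cells was -3.76 ± 0.23 (adjusted p = 2.23e-54), 3rd from the lowest of the 7952 genes with a mean of at least 100. Sema3e (ENSMUSG00000063531.7, chromosome 5, 14025276 to 14256689), the ligand of Plxnd1, had fitted levels of 337.8 in DPP4+ cells, 17.2 in CD142+ cells and 11.6 in ICAM1+ cells. Both populations were thus far below DPP4+ cells, with log2 fold changes of -4.29 ± 0.29 in CD142+ and -4.86 ± 0.33 in ICAM1+ cells (adjusted p = 3.58e-47 and 1.40e-45). Between them the log2 fold change of Sema3e was -0.57 ± 0.38 with a 95% interval from -1.31 to 0.18, and it did not pass (adjusted p = 0.479). In the ranking of the same 7952 genes, Sema3d and Sema3e were 17th and 18th from the lowest in ICAM1+ against DPP4+ cells.

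Sema3a and Sema3b were lower in both populations, and in ICAM1+ cells by less than Sema3c, Sema3d and Sema3e. Sema3a (ENSMUSG00000028883.17, chromosome 5, 13125414 to 13602565), a repellent of sensory and sympathetic axons, was the least abundant ligand per exon length in DPP4+ cells, with a fitted level of 110.4 normalised counts there, 33.8 in ICAM1+ and 26.5 in CD142+ cells. Its log2 fold changes were -1.71 ± 0.34 in ICAM1+ and -2.06 ± 0.34 in CD142+ cells (adjusted p = 5.83e-06 and 3.56e-08). Sema3b (ENSMUSG00000057969.15, chromosome 9, 107597674 to 107609229), studied as a tumour suppressor, had fitted levels of 2278 in DPP4+ cells, 693.5 in CD142+ cells and 568.3 in ICAM1+ cells. The changes against DPP4+ cells were -2.00 ± 0.15 in ICAM1+ and -1.72 ± 0.15 in CD142+ cells (adjusted p = 1.20e-39 and 1.13e-29). For both genes the difference between ICAM1+ and CD142+ cells did not pass, at 0.35 ± 0.36 for Sema3a (adjusted p = 0.719, 95% interval -0.36 to 1.06) and -0.29 ± 0.15 for Sema3b (adjusted p = 0.290, -0.58 to 0.01).

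Sema3f was the exception among the ligands. This gene (ENSMUSG00000034684.12, chromosome 9, 107681500 to 107710475), whose product prefers Nrp2, had a fitted level of 47.0 in DPP4+, 156.9 in ICAM1+ and 224.9 in CD142+ cells. The level was 3.34 times that of DPP4+ cells in ICAM1+ cells (2.42 to 4.61, log2 fold change 1.74 ± 0.24, adjusted p = 5.43e-12) and 4.79 times in CD142+ cells (3.49 to 6.57, 2.26 ± 0.23, adjusted p = 1.65e-20). ICAM1+ and CD142+ cells differed by -0.52 ± 0.21, short of the threshold (adjusted p = 0.105). Sema3g, the class 3 gene outside the 10 and known from arterial endothelium, had fitted levels of 127.5 in DPP4+, 164.2 in ICAM1+ and 101.6 in CD142+ cells. It was higher in ICAM1+ than in CD142+ cells (0.69 ± 0.23, adjusted p = 0.0360) and passed in neither comparison with DPP4+ cells (adjusted p = 0.276 and 0.410).

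**Figure D2:**
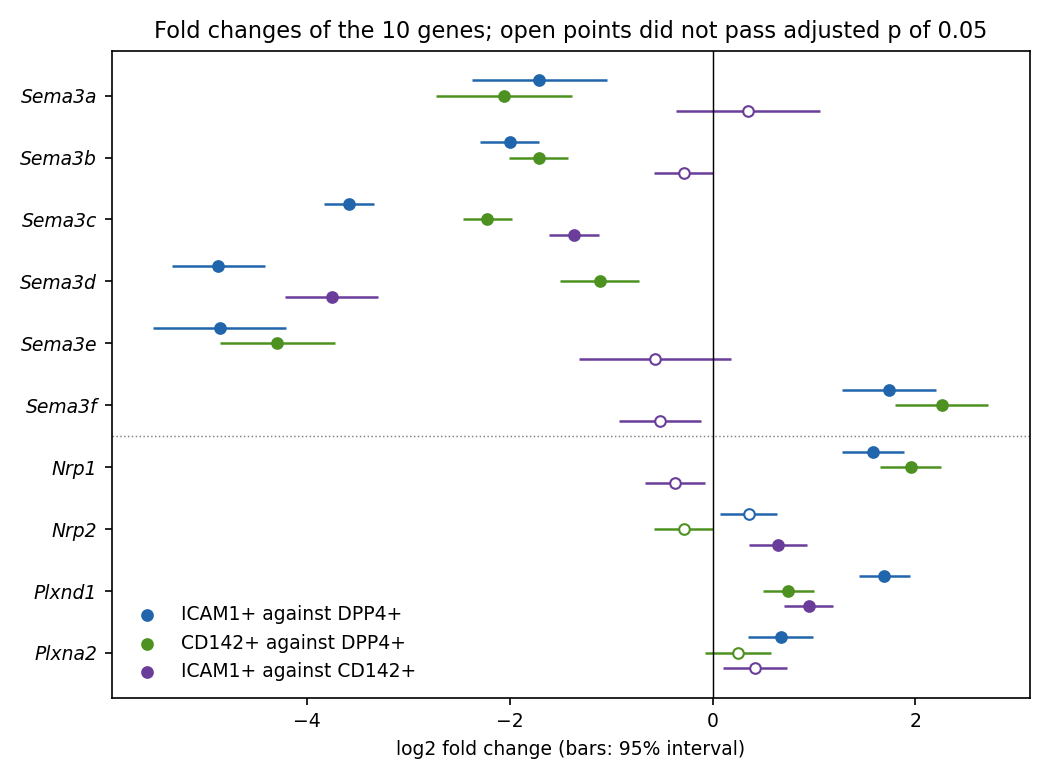
Log2 fold changes (x axis) of the 10 genes in the 3 comparisons, with 95% intervals as bars; filled points passed an adjusted p of 0.05 and open points did not. Sema3d lies at -4.87 in ICAM1+ but at -1.12 in CD142+ against DPP4+ cells, while Sema3f, Nrp1 and Plxnd1 lie to the right of 0 in both.

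Set on a scale per kb of exon, so that genes of different length can be compared, the 7 class 3 genes together reached a fitted level of 2333 normalised counts per kb in DPP4+ cells, 633.8 in CD142+ cells and 328.6 in ICAM1+ cells. The make-up differed too. Sema3c held 69.3% of this sum in DPP4+ cells, 54.6% in CD142+ and 40.8% in ICAM1+ cells. Sema3b held 20.4%, 22.9% and 36.2% in the same order, so that in ICAM1+ cells it came close to Sema3c (119.0 against 134.1 per kb). Sema3d held 6.81% in DPP4+ cells, 11.6% in CD142+ cells and 1.65% in ICAM1+ cells. The share of Sema3f was 0.388%, 6.83% and 9.19%. These shares are fitted values with no error. With the length of the longest coding transcript in place of all exons, a setting chosen after the values were seen, the share of Sema3c was 67.9%, 53.0% and 39.8%.

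**Figure D3:**
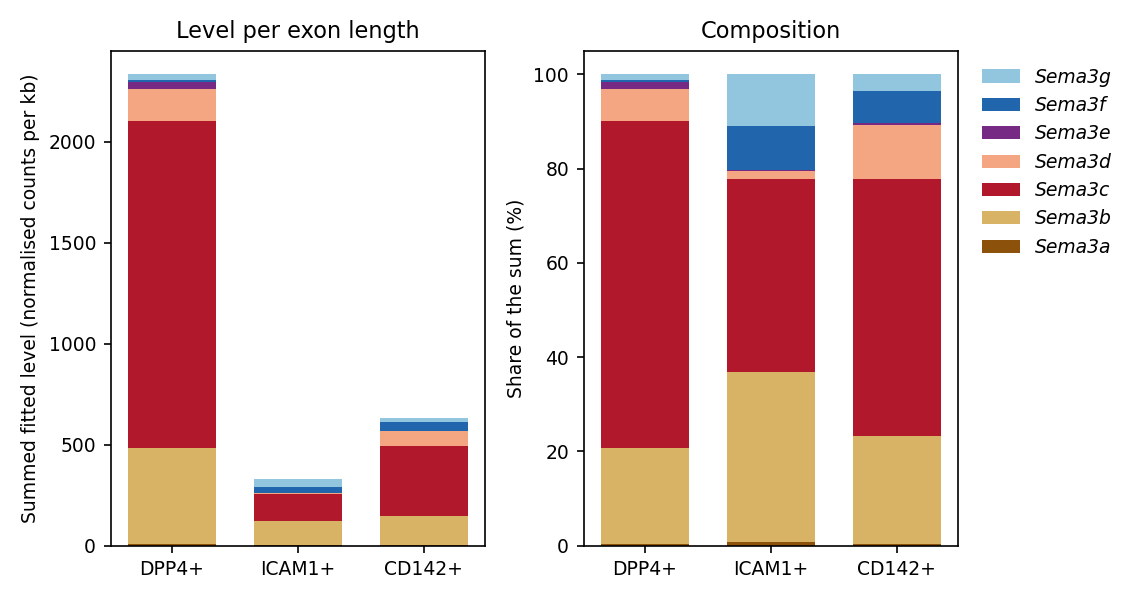
Fitted levels of the 7 class 3 semaphorin genes per kb of exon, stacked by population (left, normalised counts per kb), and as shares of each sum (right, percent), with no error available. The column of DPP4+ cells reaches 2333 per kb, and Sema3c makes up 69.3% of it.

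The 4 receptor genes of the list went the other way or changed less. Plxna1, a plexin outside the list, was lower in both populations, as given below. Nrp1 (ENSMUSG00000025810.9, chromosome 8, 128358604 to 128503363), the main neuropilin for Sema3a and a co-receptor for VEGF, had a fitted level of 491.9 in DPP4+, 1473 in ICAM1+ and 1906 in CD142+ cells. That is 2.99 times the level of DPP4+ cells in ICAM1+ cells (2.43 to 3.69, log2 fold change 1.58 ± 0.15, adjusted p = 8.09e-23) and 3.87 times in CD142+ cells (3.14 to 4.78, 1.95 ± 0.15, adjusted p = 8.88e-35). ICAM1+ cells did not pass against CD142+ cells (-0.37 ± 0.15, adjusted p = 0.112). Nrp2 (ENSMUSG00000025969.15, chromosome 1, 62703285 to 62818695), the neuropilin of Sema3f and of lymphatic vessels, varied little, at 351.1 in DPP4+, 448.7 in ICAM1+ and 288.0 in CD142+ cells. It was higher in ICAM1+ than in CD142+ cells (0.64 ± 0.15, adjusted p = 0.000336). Against DPP4+ cells it passed neither in CD142+ (-0.29 ± 0.15, adjusted p = 0.188) nor in ICAM1+ cells (0.35 ± 0.15, adjusted p = 0.0589), and for the latter adjustment without genes whose mean was under 10 gave 0.0491 and re-centred fold changes gave 0.0222. Per kb of exon, Nrp1 was at 50.3 and Nrp2 at 29.6 in DPP4+ cells, against 194.8 and 24.3 in CD142+ cells.

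Plxnd1 differed between all 3 populations. The plexin of Sema3e and of vessel patterning (ENSMUSG00000030123.15, chromosome 6, 115954811 to 115995005) had a fitted level of 410.7 in DPP4+ cells, 689.1 in CD142+ cells and 1328 in ICAM1+ cells, and each difference passed. ICAM1+ cells had 3.23 times the level of DPP4+ cells (2.72 to 3.85, log2 fold change 1.69 ± 0.13, adjusted p = 6.47e-38), and CD142+ cells had 1.68 times (0.75 ± 0.13, adjusted p = 1.47e-07). Between ICAM1+ and CD142+ cells the log2 fold change was 0.95 ± 0.12 (adjusted p = 4.61e-12). Plxna2 (ENSMUSG00000026640.12, chromosome 1, 194618218 to 194816869), which signals for Sema3a and the class 6 semaphorins, was higher in ICAM1+ than in DPP4+ cells (0.67 ± 0.16, adjusted p = 0.000368), with fitted levels of 339.7 and 213.3. CD142+ cells, at 253.7, passed against neither DPP4+ (0.25 ± 0.16, adjusted p = 0.352) nor ICAM1+ cells (adjusted p = 0.0823).

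Counted together, in ICAM1+ against DPP4+ cells 4 of the 10 genes were higher (Sema3f, Nrp1, Plxnd1, Plxna2) and 5 lower (Sema3a to Sema3e), where 12.4% of the 17851 genes tested were higher and 12.0% lower. In CD142+ against DPP4+ cells 3 were higher (Sema3f, Nrp1, Plxnd1) and the same 5 ligand genes lower, beside 10.1% and 8.91% of the 17450 genes tested. In ICAM1+ against CD142+ cells Nrp2 and Plxnd1 were higher and Sema3c and Sema3d lower, 2 and 2, beside 3.77% and 5.28% of 15848. All of the 10 but Sema3a had a mean of at least 100, and the shares called were larger among such genes. Of these 7952 genes, 1320 were higher and 1630 lower in the first comparison, 1114 and 1149 in the second, and 390 and 677 in the third. The median log2 fold changes of the 10 genes were -0.68, -0.70 and -0.33 in this order, and those of all genes tested were 0.02, -0.01 and 0.00. Tested against a change of 1 on the log2 scale, 2 genes were called higher and 4 lower in ICAM1+ against DPP4+ cells, 2 and 3 in CD142+ against DPP4+ cells, and 0 and 1 in ICAM1+ against CD142+ cells. Both comparisons with DPP4+ cells share the 3 DPP4+ libraries, so their values are not independent of each other.

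**Figure D4:**
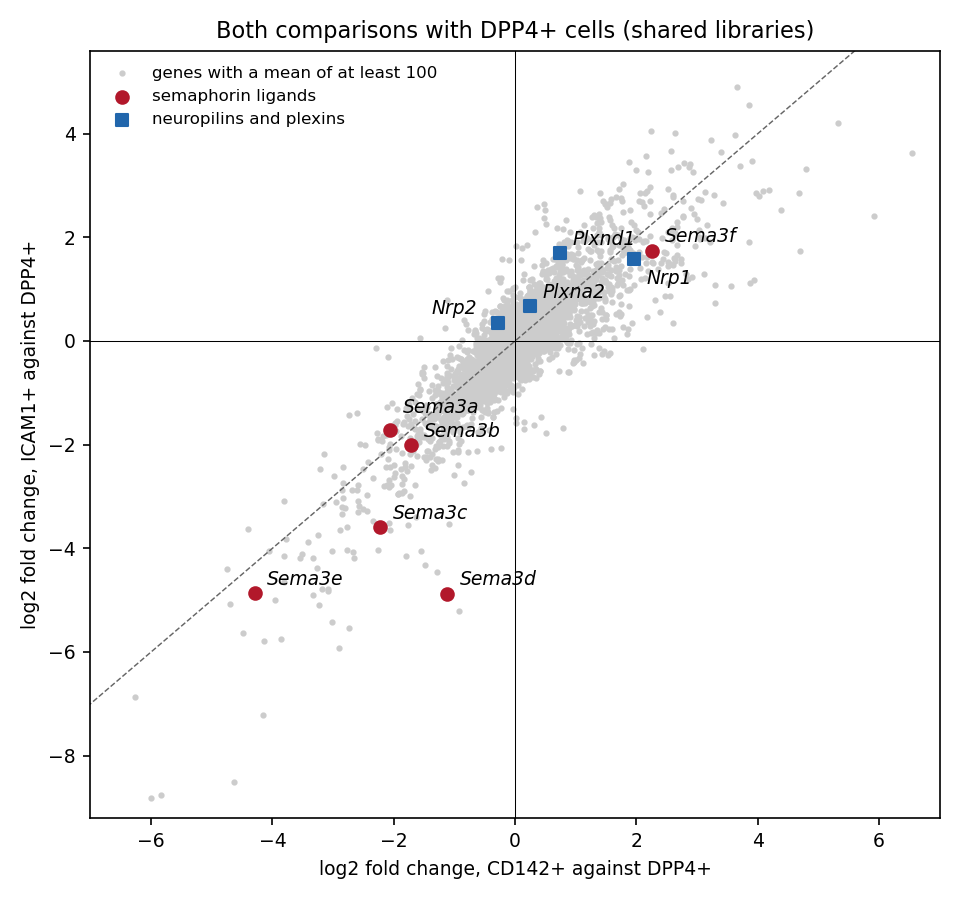
Log2 fold change in ICAM1+ (y axis) and in CD142+ cells (x axis), each against the same DPP4+ libraries, for genes with a mean of at least 100 (grey) and for the 10 genes (red circles, ligands; blue squares, receptors). Sema3d lies far below the dashed line of equal change, at -4.87 on the y axis and -1.12 on the x axis, and Plxnd1 above it (1.69 and 0.75).

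The 7 class 3 ligand genes summed to less, and the 4 receptor genes of the list to more, in ICAM1+ and CD142+ cells than in DPP4+ cells. This contrast holds for the genes summed here and not for all receptors. Plxna1, a neuropilin partner outside the list, was not in the sum. Its fitted level was 3598 in DPP4+, 1183 in ICAM1+ and 1096 in CD142+ cells, above that of each of the 4 genes in DPP4+ cells. Per kb of exon, Nrp1, Nrp2, Plxnd1 and Plxna2 together had a fitted level of 148.6 in DPP4+ cells, 328.2 in CD142+ cells and 390.0 in ICAM1+ cells. In CD142+ cells Nrp1 made up 59.3% of the sum and Plxnd1 28.8%, whereas in ICAM1+ cells Plxnd1 made up 46.6% and Nrp1 38.6%. Of the exon bases of Nrp1, 0.818% are shared with Mir1903 on the same strand, and the other 9 genes share none with another gene.

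Beyond the 10 genes, 65 other genes of the pathway were listed, chosen with earlier results of these data known. In ICAM1+ against DPP4+ cells 18 were higher and 16 lower, in CD142+ against DPP4+ cells 11 and 17, and in ICAM1+ against CD142+ cells 14 and 5, and 63, 63 and 62 of them had an adjusted p. Over all genes tested 12.4% were higher and 12.0% lower in the first comparison, 10.1% and 8.91% in the second, and 3.77% and 5.28% in the third, and the counts of each list below are to be read beside these shares. Membrane-bound semaphorins signal between touching cells. Of 13 measured, 7 were higher and 1 lower in ICAM1+ against DPP4+ cells, 5 and 1 in CD142+ against DPP4+ cells, and 5 and 0 in ICAM1+ against CD142+ cells. Sema5b, which guides retinal neurites, had log2 fold changes of 3.25 ± 0.23 in ICAM1+ and 2.19 ± 0.24 in CD142+ cells against DPP4+ cells. Sema4a, a semaphorin of immune cells, had 2.53 ± 0.22 and 1.90 ± 0.22, and Sema5a had 1.61 ± 0.13 and 0.91 ± 0.13. Sema6d, a ligand of Plxna1, was at 1.67 ± 0.18 in ICAM1+ against DPP4+ cells and at 0.81 ± 0.17 against CD142+ cells. Sema7a, which is anchored in the membrane by a lipid, was at 0.74 ± 0.18 in ICAM1+ against CD142+ cells.

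Among the 7 other plexins measured, 3 were higher and 1 lower in ICAM1+ against DPP4+ cells, 1 and 1 in CD142+ against DPP4+ cells, and 3 and 0 in ICAM1+ against CD142+ cells. Plxna1, a partner of neuropilins, was the plexin that was lower, with a fitted level of 3598 in DPP4+, 1183 in ICAM1+ and 1096 in CD142+ cells. Its log2 fold changes against DPP4+ cells were -1.61 ± 0.12 in ICAM1+ and -1.72 ± 0.12 in CD142+ cells (adjusted p = 5.64e-36 and 4.28e-41), opposite in sign to those of Plxnd1. Plxnb2, a receptor of class 4 semaphorins, was at 0.50 ± 0.11 and 0.79 ± 0.11 in the same order.

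The 10 co-receptors and neuropilin relatives were divided, with 3 higher and 3 lower in ICAM1+ against DPP4+ cells, 0 and 3 in CD142+ against DPP4+ cells, and 3 and 1 in ICAM1+ against CD142+ cells (3.77% and 5.28% of all genes tested), where 1 gene of 10 says nothing of the list. Chl1, an adhesion molecule that joins neuropilin complexes, was at -2.47 ± 0.26 in ICAM1+ and -3.22 ± 0.27 in CD142+ against DPP4+ cells. The receptor tyrosine kinase Met was at -1.75 ± 0.21 and -1.02 ± 0.20, and Dcbld2, which resembles neuropilins in its domains, at -1.42 ± 0.12 and -1.27 ± 0.12. Kdr, the VEGF receptor that pairs with Nrp1, was higher in ICAM1+ than in CD142+ cells (0.84 ± 0.16, adjusted p = 7.19e-06) and than in DPP4+ cells (0.79 ± 0.16, adjusted p = 1.09e-05). It was at -0.05 ± 0.16 in CD142+ against DPP4+ cells (adjusted p = 0.908). The sum of endothelial markers given below was also highest in ICAM1+ cells, and the part of endothelial cells in the level of Kdr was not tested. Among the 5 VEGF ligands 0, 1 and 1 were higher and 1, 2 and 1 lower in the 3 comparisons. Vegfa, the ligand that Nrp1 binds, was at 0.48 ± 0.12 in ICAM1+ against CD142+ cells (adjusted p = 0.000944) and at -0.31 ± 0.12 in CD142+ against DPP4+ cells (adjusted p = 0.0429), and it did not pass in ICAM1+ against DPP4+ cells (0.17 ± 0.12, adjusted p = 0.322).

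Inside the cell, of 25 effectors measured 5 were higher and 9 lower in ICAM1+ against DPP4+ cells, 4 and 9 in CD142+ against DPP4+ cells, and 1 and 3 in ICAM1+ against CD142+ cells. The 1 gene higher in the last comparison is near the share over all genes (3.77%). Mical2, a relative of the actin-oxidising enzyme that plexins bind, was at 2.15 ± 0.22 in ICAM1+ and 3.04 ± 0.22 in CD142+ against DPP4+ cells, while Mical1 was at -1.01 ± 0.17 in ICAM1+ cells. Dpysl3, of the collapsin response mediators, was at -1.08 ± 0.10 and -0.75 ± 0.10, and the kinase Fyn at -0.70 ± 0.12 in CD142+ against DPP4+ cells. Between ICAM1+ and CD142+ cells the GTPase Rnd1 was at 0.51 ± 0.17 and Rac1 at -0.36 ± 0.11. Among the 4 proprotein convertases 1 was lower in ICAM1+ and in CD142+ against DPP4+ cells. That was Pcsk6, with a fitted level of 5663 in DPP4+ cells, 941.9 in CD142+ cells and 820.7 in ICAM1+ cells (-2.59 ± 0.14 and -2.79 ± 0.14). Furin, which cuts class 3 semaphorins and was chosen after its values were seen, had fitted levels of 1314, 1210 and 1331 and passed in none of the 3 comparisons (adjusted p = 0.939, 0.576 and 0.600).

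**Figure D5:**
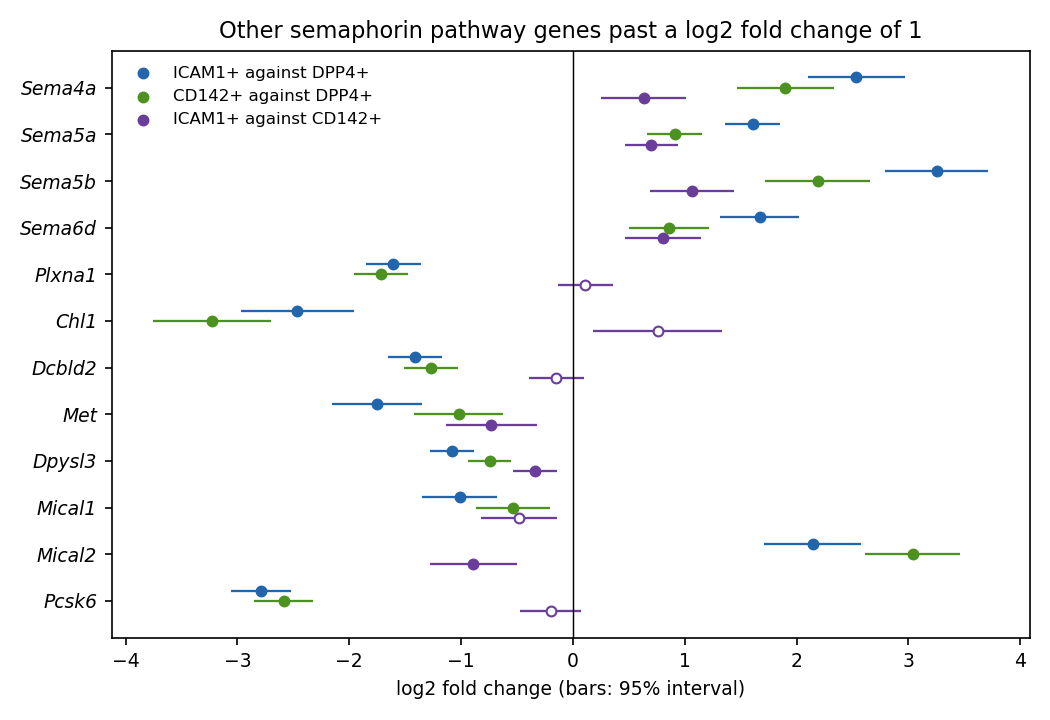
Log2 fold changes (x axis) of pathway genes outside the 10, those with a mean of at least 100 that passed with a log2 fold change above 1 in size in at least 1 comparison, with 95% intervals as bars; filled points passed an adjusted p of 0.05 and open points did not. Sema5b (3.25 in ICAM1+) lies at the right end, and Chl1 (-3.22 in CD142+) and Pcsk6 (-2.79 in ICAM1+) lie to the left.

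None of the other measured genes lying between these ligand genes was called lower, though those with a mean under 10 had wide errors and could hardly be called. From the start of Sema3d to the end of Sema3c, a span of 5347 kb, lie 21 protein-coding genes, the ligand genes themselves among them. Of these 7 were measured, and 2 of the 3 outside the list had a mean of at least 10. Cacna2d1, a calcium channel subunit, passed in none of the 3 comparisons (0.15 ± 0.14 in ICAM1+ and 0.25 ± 0.14 in CD142+ against DPP4+ cells, adjusted p = 0.498 and 0.237). Hgf, the ligand of Met, was higher in both, at 1.85 ± 0.32 and 1.75 ± 0.32 (adjusted p = 7.92e-08 and 5.25e-07). Of the 3 other genes measured between Sema3b and Sema3f, 1 had a mean of at least 10. That was Gnai2, a G protein subunit gene, at -0.08 ± 0.12 in ICAM1+ and 0.00 ± 0.12 in CD142+ against DPP4+ cells. These neighbours were named after their values were seen.

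For the 5 ligand genes with a mean of at least 100 and a log2 fold change of 2 or more in size, which leaves out Sema3a, the genes most like each were found by the distance between the log2 fold changes in the 2 comparisons with DPP4+ cells, over 7951 genes and the 3 populations. For Sema3c these were Efna5 (distance 0.03), an ephrin of axon guidance, Pcolce2 (0.16) and 1700019D03Rik (0.16). Axl (0.02), Me2 (0.08) and Anxa1 (0.08) were nearest to Sema3b. The nearest to Sema3d were Bmp3 (0.40), Smpd3 (0.46) and Gm26771 (0.66), and to Sema3e Stmn4 (0.35), Dact2 (0.46) and Spsb4 (0.53). A730049H05Rik (0.10), Dock6 (0.15) and Angpt2 (0.19), the last an angiopoietin, were nearest to Sema3f. With 3 populations many genes can come close, and the distances of Sema3d and Sema3e were larger than those of the other 3. The distances are given without error, and the SE of a fold change could exceed them. For Bmp3 it was 0.70 in ICAM1+ and 0.68 in CD142+ against DPP4+ cells, so the order of the nearest genes is not settled.

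The sorted populations carried their markers, with exceptions. Dpp4 had a fitted level of 5466 in DPP4+ cells, 729.4 in CD142+ cells and 89.9 in ICAM1+ cells, and F3, which encodes CD142, had 1469 in CD142+ against 243.1 and 310.5 in DPP4+ and ICAM1+ cells. Icam1 did not separate ICAM1+ from CD142+ cells (7966 and 7058, adjusted p = 0.631). Some genes of other cell types moved with the receptor genes, and no listed marker was at 0. In ICAM1+ against DPP4+ cells 5 of 10 endothelial, 5 of 10 mural, 7 of 9 Schwann cell and 3 of 4 adipocyte markers were higher, as Vwf (0.82 ± 0.16), Notch3 (3.36 ± 0.14), Foxd3 (2.69 ± 0.71) and Plin1 (4.54 ± 0.46). The mural marker Kcnj8 was lower (-2.06 ± 0.24). The summed fitted level of the endothelial list was 2662 in DPP4+, 4019 in ICAM1+ and 2437 in CD142+ cells, that of the Schwann list 1328, 2819 and 1129, and that of the mural list 2862, 10674 and 6620. The adipocyte list summed to 11.2, 260.1 and 86.3. In ICAM1+ against CD142+ cells 6 of 10 endothelial, 7 of 9 Schwann cell, 6 of 10 mural and 2 of 4 adipocyte markers were higher and 2 mural markers lower (Kcnj8 at -1.83 ± 0.24 and Abcc9 at -0.94 ± 0.17). In CD142+ against DPP4+ cells 5 of 10 mural, 2 of 4 adipocyte and 1 of 9 Schwann cell markers were higher, the last being S100b (1.61 ± 0.35). Plxnd1, Nrp2 and Plxna2 had their highest fitted level in ICAM1+ cells as these sums did, and the part of such cells in those values was not tested. Of these, Nrp2 did not pass against DPP4+ cells, nor Plxna2 against CD142+ cells. Nrp1 had its highest fitted level in CD142+ cells, though ICAM1+ cells did not pass against them (-0.37 ± 0.15, adjusted p = 0.112). In CD142+ cells 0 of 10 endothelial markers were called higher than in DPP4+ cells and their sum was lowest. By contrast, 5 of 10 mural markers were higher there than in DPP4+ cells, Notch3 (2.69 ± 0.15) and Abcc9 (1.24 ± 0.17) among them. Notch3 had its highest fitted level in ICAM1+ cells (3887, against 2444 in CD142+ cells), as the mural sum did. Abcc9 had its highest in CD142+ cells (1640, against 855.4 in ICAM1+ cells). The part of such cells in the level of Nrp1 was not tested. Of 10 immune markers 0, 1 and 1 were called in the 3 comparisons, and of 6 neuronal markers 0 in each, with sums of 281.1, 467.3 and 325.2 and of 125.1, 85.8 and 115.7 in DPP4+, ICAM1+ and CD142+ cells. Krt19 was the 1 of 6 mesothelial markers called, lower in ICAM1+ (-1.99 ± 0.33) and CD142+ (-1.20 ± 0.31) than in DPP4+ cells. The sum of this list was 140.8 in DPP4+ cells, 73.2 in CD142+ cells and 42.4 in ICAM1+ cells, most of it from Krt19 (125.4, 54.6 and 31.5), and the other 5 markers had a mean under 10. Of the 8 stromal markers, 5 were lower and 2 higher in ICAM1+ against DPP4+ cells, among them Cd34 (-2.13 ± 0.10).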

How the data were processed

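RNA was taken from sorted DPP4+, ICAM1+ and CD142+ cells, 3 libraries each. The submitters' notes list STAR 2.5.2a, DESeq2 and R 3.5.1 as tools and mm10 as the build. The deposited tables, 1 for each of 3 comparisons, hold a mean normalised count (a signal averaged over libraries by the authors), a log2 fold change with its SE, the Wald statistic (a score) and the p-value with its adjusted value, all made by the authors. Values per library were not used here. Rows that name no gene (4, holding 59.6% of the summed mean) were left out, leaving 20655 genes. Fitted levels, 95% intervals (normal), ranks among genes whose mean was 100 or more, distances and alternatives were computed with Python 3.11.15, pandas 2.3.3, numpy 2.4.6 and scipy 1.17.1. The adjusted p was checked against Benjamini-Hochberg adjustment (largest difference 2.3e-15), and the recomputed Wald test was run on simulated data. These were drawn with the deposited SE, so they check the computation and not the SE or the spread between libraries. The 10 genes, the pathway and marker lists and the tests were chosen with earlier results of these data known. Outside the 10, genes were named as the up to 3 called per list and comparison with the largest change and a mean of at least 100 (the most abundant where none passed), up to 2 called with no minimum mean for marker lists (Kcnj8 in ICAM1+ against DPP4+ cells and Abcc9 in ICAM1+ against CD142+ cells were added after their values were seen), and the 3 likest genes per ligand, of which the text gives a part. Exon lengths and positions are from GENCODE M21. Whether reads were counted by strand is not given in the sources used here.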

Additional observations from a re-analysis of the deposited data

How the results depend on the processing

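No paired analysis was possible because the deposited tables hold differences between populations and no values per library, so the fits with the replicate block and those that leave out a library were not run, nor was another normalisation of counts. No log2 fold change of the 10 genes changed direction when re-centred on the median, the one alternative that moves it. Of the other genes, Kdr in CD142+ against DPP4+ cells (-0.05) was no larger than that shift (-0.05), so its sign has no meaning. With a log2 change of 1 as the null value, the 10 genes gave 2 higher in ICAM1+ against DPP4+ cells (4 in the report), 3 lower in CD142+ against DPP4+ cells (5), and 0 higher and 1 lower in ICAM1+ against CD142+ cells (2 and 2). The other pathway genes gave 5 higher and 5 lower, 3 and 4, and 0 and 0 in the same order (18 and 16, 11 and 17, 14 and 5). With a change above 1 only required beside the adjusted p, 0 of the 10 were higher in ICAM1+ against CD142+ cells, and the other pathway genes gave 7 and 9, 4 and 7, and 5 and 1. At an adjusted p below 0.01 the other genes gave 7 higher and 3 lower in ICAM1+ against CD142+ cells, and below 0.1 they gave 9 lower. Nrp2 in ICAM1+ against DPP4+ cells passed when genes with a mean under 10 were left out of the adjustment (adjusted p = 0.0491), when fold changes were re-centred on the median (0.42, adjusted p = 0.0222) and at a threshold of 0.1, where Plxna2 in ICAM1+ against CD142+ cells also passed. Shares of the ligand sum with the longest coding transcript, a setting chosen after the data were seen, differed little (Sema3c 67.9%, 53.0% and 39.8% in DPP4+, CD142+ and ICAM1+ cells). Depth per library is unknown, and low genes such as Sema3e in ICAM1+ cells (fitted level 11.6) had the widest intervals.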
